A study of Mus musculus with 4 samples.

Results

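The zinc finger genes of mouse chromosomes 7, 13 and 17 were examined for chromatin accessibility with and without HAT1, the acetyltransferase that modifies newly made histone H4. A gene was a member when GENCODE listed it as protein-coding on 1 of these 3 chromosomes under a symbol of Zfp followed only by digits, and a site (a merged ATAC-Seq region in mm10) was a member when it overlapped the body of such a gene or lay within 2 kb of one of its transcription start sites (TSSs). There were 161 such genes, 89 on chromosome 7, 31 on chromosome 13 and 41 on chromosome 17. They held 226 of the 82325 sites. A site within 2 kb of a TSS was counted as a promoter site (182) and any other as a gene body site (44). A run of at least 3 member genes with gaps of at most 0.5 Mb was called a cluster, which put 133 genes in 13 clusters and left 28 solitary.

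The cells were mouse embryonic fibroblasts (MEFs) on a C57bl6 background, taken from mid-gestation embryos and immortalized with SV40 large T antigen. Both genotypes carried that antigen. There were 4 libraries, 2 from HAT1+/+ lines (WT) and 2 from HAT1-/- lines (KO), and the labels named no other difference. The line names of WT replicate 1 (imMEF643CT) and KO replicate 2 (imMEF643BT) share the number 643, and whether these lines came from 1 litter is not given in the sources used here. Each library was a separate immortalized line, so the spread within a genotype may include what each line acquired in culture. The limma p-values rest on the spread between these lines only, taken at the site together with sites of similar signal.

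Most genes named Zfp followed by a number encode C2H2 zinc finger proteins, and many of these begin with a KRAB domain. KRAB zinc finger proteins bind DNA, often within transposable elements, and recruit TRIM28 and the methyltransferase SETDB1, which places H3K9me3 and silences the bound element. Their genes arose by repeated tandem duplication and lie in clusters whose gene bodies carry H3K9me3 themselves while their promoters stay open. The symbol is not proof of the family: Zfp36, for example, is a CCCH protein that binds and destabilizes messenger RNA.

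Several of the largest differences between libraries were at promoters of a pair of tandem clusters, 13B on chromosome 13 and 7C on chromosome 7. The 250 bases upstream of the RefSeq start are printed 5′ to 3′ in the direction of the gene, from GRCm38.p6, the assembly behind mm10. Capitals mark a match to ACTACATNNCCCA or its reverse complement TGGGNNATGTAGT on either strand. These letters were taken after the sequences had been read, as the 13-base window of Zfp773 that kept most letters (11) over 5 of the printed promoters, and they resemble the motif recognized by Zfp143, itself a member and a transcription factor that binds many promoters. In 13B the genes Zfp456 (chr13:67375764-67376013, minus strand), Zfp429 (chr13:67399768-67400017, minus strand) and Zfp459 (chr13:67421419-67421668, minus strand) follow each other, and they are shown because WT replicate 2 was the lowest library at each of their sites.
Zfp456: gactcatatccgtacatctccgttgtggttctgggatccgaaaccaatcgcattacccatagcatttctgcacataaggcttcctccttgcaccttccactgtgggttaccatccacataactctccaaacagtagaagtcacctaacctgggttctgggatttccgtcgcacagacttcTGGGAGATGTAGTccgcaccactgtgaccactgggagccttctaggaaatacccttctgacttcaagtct
Zfp429: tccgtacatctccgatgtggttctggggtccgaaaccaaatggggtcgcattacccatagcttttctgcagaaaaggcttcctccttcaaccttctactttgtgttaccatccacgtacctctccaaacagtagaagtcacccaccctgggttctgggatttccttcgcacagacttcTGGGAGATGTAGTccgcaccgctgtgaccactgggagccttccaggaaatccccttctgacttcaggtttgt
Zfp459: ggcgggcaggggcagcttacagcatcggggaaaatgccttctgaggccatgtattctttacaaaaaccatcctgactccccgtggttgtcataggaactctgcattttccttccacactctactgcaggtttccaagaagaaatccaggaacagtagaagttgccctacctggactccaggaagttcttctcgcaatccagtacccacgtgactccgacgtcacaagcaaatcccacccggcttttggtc

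In 7C the genes Zfp954 (chr7:7121477-7121726, minus strand), Zfp773 (chr7:7136756-7137005, minus strand) and Zfp418 (chr7:7171103-7171352, plus strand) are neighbours, and they are shown because the first kept its accessibility in the KO libraries while the other two were lower.
Zfp954: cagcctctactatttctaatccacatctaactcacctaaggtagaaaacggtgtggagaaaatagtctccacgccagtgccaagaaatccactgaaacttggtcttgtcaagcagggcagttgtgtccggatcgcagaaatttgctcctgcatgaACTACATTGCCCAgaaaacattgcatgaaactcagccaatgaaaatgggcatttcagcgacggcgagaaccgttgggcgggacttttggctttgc
Zfp773: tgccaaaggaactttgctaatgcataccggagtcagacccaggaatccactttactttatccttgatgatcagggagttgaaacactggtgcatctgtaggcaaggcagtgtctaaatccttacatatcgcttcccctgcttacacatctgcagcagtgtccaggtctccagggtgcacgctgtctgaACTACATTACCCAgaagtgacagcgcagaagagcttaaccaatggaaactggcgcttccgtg
Zfp418: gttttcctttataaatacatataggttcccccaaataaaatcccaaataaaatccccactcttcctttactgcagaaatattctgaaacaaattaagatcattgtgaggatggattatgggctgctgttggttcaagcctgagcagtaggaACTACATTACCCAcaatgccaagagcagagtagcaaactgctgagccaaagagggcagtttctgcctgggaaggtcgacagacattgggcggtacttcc

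In a global alignment Zfp456 and Zfp429 were identical at 222 of 258 columns (86.0%), whereas Zfp459 matched them at 53.5% and 52.1% of columns. The 3 sequences of 7C matched each other at 49.2% to 56.2% of columns. RefSeq promoters were found for 144 of the 161 genes, in 166 entries. The capitalized letters occurred in 26 of the 161 entries other than the 5 they were taken from (16.1%), beside 178 of 32851 (0.54%) over all RefSeq promoters. With the 5 included they were in 13 of 18 entries of 13B, 9 of 15 of cluster 7G, 3 of 12 of 7E and 3 of 4 of 7C, and in none of the 23 entries of 17A, the 12 of 7I, the 11 of 17B or the 9 of 7H. Genes of 1 cluster are related copies, so these entries are not independent. A match is a string of letters and not a measured binding site. Promoter sites of genes with a match had a median log2 fold change of 0.063 over 37 sites, and those of genes without one had 0.059 over 131 sites.

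Depth within sites was about 9420000 and 11400000 reads for the WT lines and 7830000 and 5650000 reads for the KO lines, in the order of their numbers, as estimated from the steps in the scaled values, so counting error was larger in the KO libraries. All values given here are normalized counts per site, scaled per library by the authors. The promoter site of Hat1, the targeted gene, had 390 and 384 in WT and 438 and 368 in KO, which overlap. Accessibility of that promoter therefore gave no check of the genotypes. Of 10 fibroblast marker genes, all had a promoter site (median value 233, Vim highest at 866). Epithelial markers had promoter sites at 2 of 4 genes with values of 20.5 and 39.0, endothelial markers at 3 of 3 (up to 123), blood markers at 1 of 2 (Cd68, 180), neural markers at 3 of 3 (12.5 to 172) and the pluripotency genes Pou5f1 and Nanog at neither. The part of such signal in the results below was not tested.

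Open promoters were the rule among the Zfp genes. A promoter site was present at 152 of the 161 genes (94.4%), compared with 59.0% of the other 3756 protein-coding genes of the same chromosomes and 65.7% of all protein-coding genes. The 9 genes without one were Zfp366, Zfp97, Zfp446, Zfp541, Zfp626, Zfp146, Zfp788, Zfp977 and Zfp936, and of these only Zfp366 had any site, all 5 of them intronic. Zfp366 encodes a nuclear factor best known from dendritic cells. The promoter sites were strong and long, with a median value of 175 and a median length of 773 bp, beside 132 and 640 bp for the 21131 protein-coding promoter sites of the genome. Of the 182, 151 overlapped a TSS and 166 (91.2%) reached the median of all sites. Their GC content (54.3%) and CpG observed over expected ratio (0.586) were below those of all protein-coding promoter sites (58.5% and 0.637).

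Gene bodies held fewer sites than promoters did. A body site was present at 28 of the 161 genes, 18 of them in clusters and 10 solitary. The 133 clustered genes shared 23 body sites and the 28 solitary genes held 21. These counts were not set against gene length or against the bodies of other genes. Sites inside a gene but within 2 kb of any of its TSSs were counted as promoter sites. Of the 44, 35 were intronic and 9 touched an exon. Their median value was 38.9, under the 52.0 of all sites, and their CpG observed over expected ratio was 0.198. The number of body sites per gene was highest for the solitary genes Zfp366 with 5 and Zfp169 and Zfp710 with 4 each, and among the clustered genes for Zfp568 with 3.

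No Zfp promoter site passed the call rule of the study, an unadjusted p under 0.01 and a log2 fold change of 1 or more in size. The study states that rule for primary MEFs, with the DiffBind package and more libraries per genotype, and it was carried over here. In limma on log2(value + 1), fitted to all sites, 0 of the 182 promoter sites and 0 of the 44 body sites were called, beside 307 of 82325 (0.373%) in all, 0.302% lower and 0.0705% higher in KO. At an unadjusted p under 0.05, 4 promoter sites and no body site passed, beside 3.13% of all sites and 3.2% of protein-coding promoter sites. In limma the adjusted p was 1 at each of the 226 Zfp sites, and no site of the whole table had one under 0.05. The 4 promoters were Zfp773, lower in KO (beside 1.59% of all sites), and Zfp52, Zfp712 and Zfp948, higher in KO (beside 1.54%). The exact permutation test of 2 libraries against 2 cannot go below 0.33, so no single value was tested that way beyond the cluster sums given below.

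The promoter sites as a class sat close to no change. Their median log2 fold change was 0.062 with an interquartile range of 0.26, beside 0.013 for all protein-coding promoter sites and 0.0062 for all sites. These baselines were not matched for signal. Among sites at or above the median signal of all sites, it was 0.064 over 166 Zfp promoter sites, beside 0.0605 over all 41225 such sites. The sign of the median over the 182 sites depended on the scaling. It was -0.0056 with equal totals per library, where the median of all sites moved to -0.061, and -0.0086 after quantile normalization. Of the 182 sites, 66 (36.3%) were below 0, beside 49.3% of all sites and 47.9% of protein-coding promoter sites, neither matched for signal. Both KO values lay above both WT values at 38 promoter sites (20.9%), beside 14.6% of all sites and 17.9% of protein-coding promoter sites, and below both WT values at 22 (12.1%), beside 14.3% and 15.1%. The median absolute difference between the lines of 1 genotype was 0.18 (WT) and 0.26 (KO) on the log2 scale, while the median absolute fold change was 0.16.

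**Figure D1:**
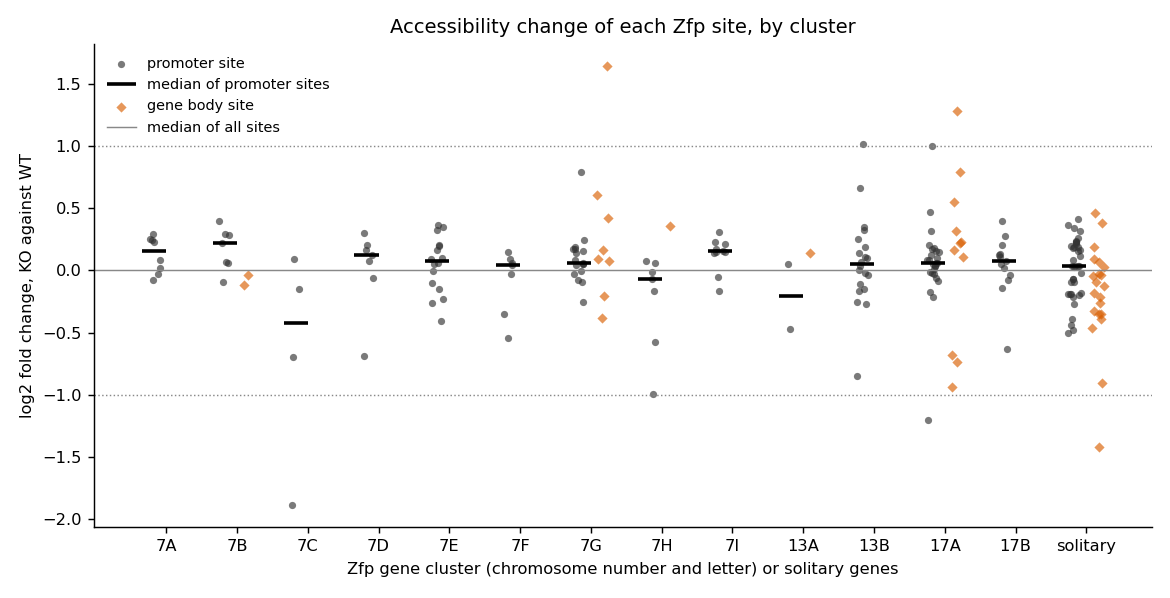
Each point is 1 Zfp site, with promoter sites as circles and gene body sites as diamonds, and its log2 fold change (KO against WT, on log2(value + 1)) on the vertical axis. Bars mark the median of the promoter sites of a cluster, the solid line the median of all sites and the dotted lines the fold limit of the call rule. Cluster 7C has the lowest median (-0.42) and 7B the highest (0.22).

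The most negative difference was at the promoter of Zfp773, a KRAB zinc finger gene of cluster 7C, whose site runs from 7136315 to 7136958 on chromosome 7 over the first exon. Its values were 89 and 90 in WT and 12 and 45 in KO. Both KO lines were below both WT lines, and KO replicate 1 was far below KO replicate 2. The log2 fold change was -1.89 ± 0.61 (SE). The neighbouring promoter of Zfp418 had 107 and 121 in WT and 61 and 80 in KO, again without overlap, with a log2 fold change of -0.70 ± 0.30. At Zfp551 in cluster 7D the values were 85 and 73 in WT and 56 and 42 in KO (-0.69 ± 0.33). Here the genotypes did not overlap either, and the KO lines were nearer to each other than at Zfp773.

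The other large negative differences rested on KO replicate 1. Zfp983, a gene of the chromosome 17 cluster 17A, had 202 and 224 in WT and 46 and 182 in KO, and Zfp493 in 13B had 202 and 250 in WT and 72 and 215 in KO. KO replicate 2 was lower than both WT lines at Zfp983 and between them at Zfp493. The log2 fold changes were -1.20 ± 0.60 and -0.85 ± 0.50. Without KO replicate 2, with the lone KO line assumed to vary as the WT lines did, Zfp773, Zfp983 and Zfp493 were called as lower, at -2.80, -2.18 and -1.63, and without KO replicate 1 none of the 226 sites was called.

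Among the positive differences, Zfp52 in cluster 17A came nearest to the call rule. Its site at 21536761 to 21537155 on chromosome 17 is intronic, 1222 bp from the nearest TSS, and had 117 and 94 in WT and 179 and 248 in KO. All 4 values kept the genotypes apart. The log2 fold change was 1.00 ± 0.27, or 0.9997 before rounding, just under the fold limit at an unadjusted p under 0.01, and centring on chromosome medians carried it past the limit. The other two promoter sites of Zfp52 did not share it: the site over the TSS had 146 and 137 in WT and 130 and 183 in KO, and the site upstream had 168 and 174 in WT and 175 and 182 in KO. A body site of Zfp52, at 30 and 18 in WT and 43 and 39 in KO, was higher in both KO lines (0.79).

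Zfp712 in 13B had 351 and 352 in WT and 472 and 427 in KO, a log2 fold change of 0.35 ± 0.13. Zfp948 in 17A had 460 and 510 in WT and 552 and 663 in KO, 0.32 ± 0.13. Both KO values were above both WT values at both promoters, but neither passed an unadjusted p under 0.05 with equal totals or with quantile normalization, where the log2 fold changes were 0.28 and 0.22 for Zfp712 and 0.25 and 0.15 for Zfp948. Zfp444 in 7B had 548 and 558 in WT and 593 and 896 in KO (0.40 ± 0.19), so that KO replicate 2 carried most of the difference. Zfp229 in 17A had 171 and 99 in WT and 162 and 202 in KO, which overlap (0.47 ± 0.32).

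**Figure D2:**
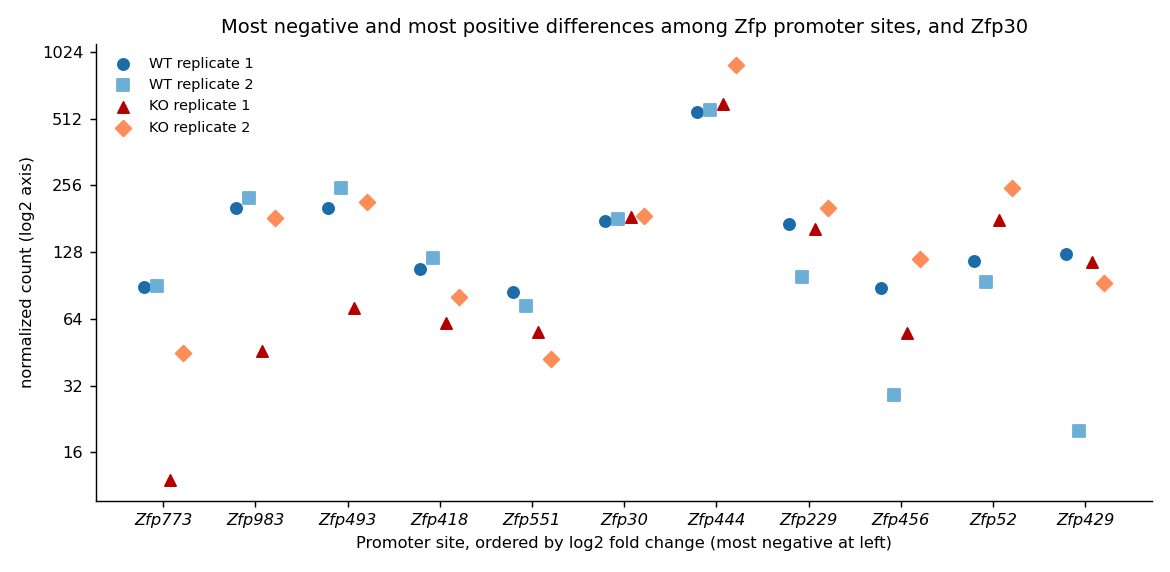
Normalized counts (log2 axis) of the 4 libraries at the 5 promoter sites with the most negative differences, the 5 with the most positive ones, and Zfp30, whose 4 values were closest, all among promoter sites at or above the median signal of all sites. KO replicate 1 lies far below the other libraries at Zfp773 (12), Zfp983 (46) and Zfp493 (72), and WT replicate 2 at Zfp429 (20) and Zfp456 (29).

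By cluster, 10 of the 13 promoter medians were above 0 and 3 were below, namely 7C at -0.42, 13A at -0.21 and 7H at -0.07. With equal totals or quantile normalization 7 of 13 were below 0. KO replicate 2 had the highest median deviation from the mean of the 4 libraries in 11 of the 13 clusters, the exceptions being 7C and 13A, where WT replicate 2 was highest. Over all Zfp promoter sites KO replicate 2 deviated by 0.14, beside 0.00497 over all protein-coding promoter sites. On chromosome 7 its deviation was 0.17 at the Zfp promoters and 0.15 at the 1427 other promoter sites of that chromosome. On chromosome 13 it was 0.10 beside 0.02, and on chromosome 17 it was 0.10 beside 0.02. Without KO replicate 2 the class median was -0.025 and 8 of 13 clusters were below 0, and without KO replicate 1 it was 0.17 and 1 of 13 was below 0, so the sign depended on which KO line was used.

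**Figure D3:**
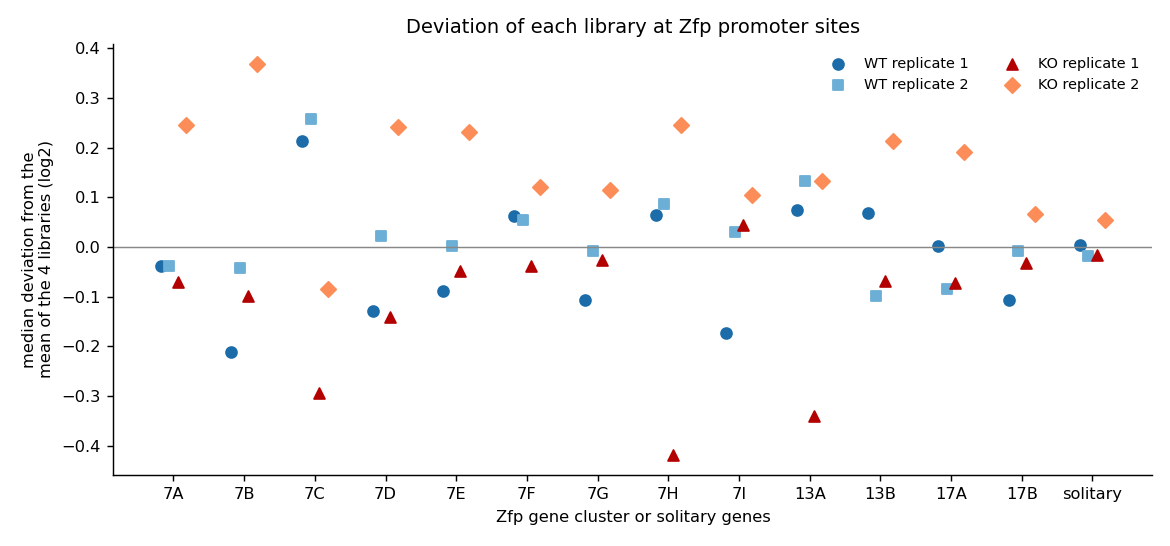
For each cluster and for the solitary genes, the median over promoter sites of a library's deviation from the mean of the 4 libraries on the log2 scale. KO replicate 2 is highest in 11 of 13 clusters, and KO replicate 1 is lowest in 6, among them 7C (-0.29), 13A (-0.34) and 7H (-0.42).

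Summed over their promoter sites, 10 clusters had KO and WT values that overlapped. In 7I, 10 genes from 127233061 to 127885996 on chromosome 7, the sums were 2679 and 2980 in WT and 2982 and 3256 in KO. In 17B, 11 genes from 32765496 to 33631779 on chromosome 17, they were 2331 and 2416 in WT and 2421 and 2601 in KO. Both KO sums were above both WT sums there, by 1.10-fold and 1.06-fold in the means, and in both clusters the nearest KO and WT lines almost met. In 7C the sums were 535 and 581 in WT and 420 and 500 in KO, 0.824-fold, and this was the only cluster with both KO sums lower. The exact permutation test gave the smallest p the design allows, 0.33 two-sided, for each of the 3.

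In the larger clusters the sums of the genotypes overlapped. Cluster 17A, with 23 genes from 21008903 to 23599487 on chromosome 17, summed to 5425 and 5066 in WT and 5051 and 6214 in KO over 26 promoter sites. Cluster 13B, with 19 genes from 67038596 to 67827002, summed to 3240 and 2942 in WT and 2915 and 3472 in KO over 20. Cluster 7G, with 15 genes from 29768552 to 30169750 on chromosome 7, summed to 3423 and 3744 in WT and 3589 and 4050 in KO over 17, and 7E, with 14 genes from 24081924 to 25227507, to 2799 and 3019 in WT and 2766 and 3535 in KO over 16. In each of the 4 the KO lines lay farther apart than the WT lines, and the median log2 fold changes ran from 0.05 to 0.07. The 38 promoter sites of solitary genes had a median of 0.04.

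In the smaller clusters the KO lines were apart as well. In 7A, 6 genes from 4915217 to 5053723 on chromosome 7, the sums were 1573 and 1587 in WT and 1567 and 2049 in KO. In 7B, 6 genes from 6131491 to 6396915, they were 2094 and 2278 in WT and 2213 and 3036 in KO, and in 7D, 7 genes from 12415153 to 12985714, they were 1025 and 1116 in WT and 996 and 1283 in KO. KO replicate 1 lay between the WT sums in 7B and just under both in 7A and 7D, and KO replicate 2 lay above both in all 3. In 7H, 9 genes from 42473386 to 43618285, the KO sums fell on either side of WT, at 1105 and 1696 against 1410 and 1457. Cluster 7F, with 1366 and 1508 in WT and 1363 and 1550 in KO, and 13A, with 266 and 280 in WT and 199 and 282 in KO, overlapped as well. Sites within the cluster intervals that were no Zfp site did not always follow the promoters: their median was 0.35 over 11 sites in 13B, where WT replicate 2 deviated by -0.39 and KO replicate 2 by 0.41, and -0.39 over 11 sites in 17B.

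Runs of sites with lower accessibility in KO are termed HAT1-dependent accessibility domains (HADs). Cluster 7C, of 4 genes (Zfp954, Zfp773, Zfp418 and Zfp772), was the only Zfp cluster with sites inside one. The rule takes the mean log2 fold change over 25 consecutive sites, keeps stretches under -0.58 and joins those up to 1 Mb apart. It found 170 HADs, which held 3.8% of all sites and 4 of the 226 Zfp sites, the 4 promoters of 7C. None of the 44 body sites was inside one, and no Zfp site was in the mirror image, a domain of higher accessibility, beside 0.104% of all sites. The domain ran from 6435438 to 7210259 on chromosome 7 and held 16 sites.

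Within that domain the other sites were low mainly in KO replicate 1. The 12 sites that were no Zfp site summed to 868 and 861 in WT, 148 in KO replicate 1 and 1101 in KO replicate 2. KO replicate 1 was below both WT lines at 12 of 12 and at least 2-fold below the WT mean at 10, whereas KO replicate 2 was above the WT mean at 7 and below both WT lines at 5. Zfp954, with 229 and 273 in WT and 250 and 286 in KO, and Zfp772, with 110 and 97 in WT and 97 and 89 in KO, had KO values within or next to the WT values, while Zfp773 and Zfp418, which lie between them, were lower in both KO lines. The differences between these sites were not tested. At Zfp772 only 28.4% of the 32-base stretches of the site occur once in the genome. Without KO replicate 1 no Zfp site was inside a HAD, and without KO replicate 2 there were 10, so the membership of 7C rested on 1 line. No Zfp site was inside a HAD either with windows of 51 sites, with a limit of -1, with a pseudocount of 8 or with sites of higher signal only.

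**Figure D4:**
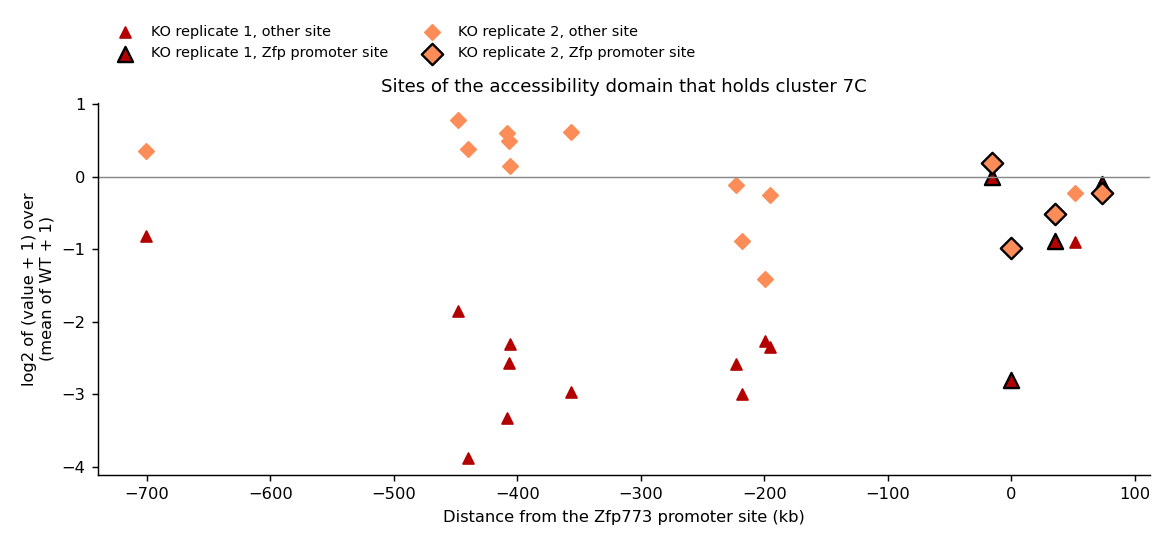
For the 16 sites of the domain that holds cluster 7C, the log2 ratio of each KO library to the mean of the WT libraries (1 added to both) against the distance from the Zfp773 promoter site in kb. Outlined symbols are the 4 Zfp promoters. KO replicate 1 is below 0 at all 12 other sites, KO replicate 2 is above 0 at 7 of them, and at Zfp773 both are below 0.

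In 13B the positive differences at Zfp429 and Zfp456 rested on a WT line. Zfp429 had 125 and 20 in WT and 115 and 93 in KO, Zfp456 had 88 and 29 in WT and 55 and 119 in KO, and Zfp459 had 59 and 27 in WT and 45 and 51 in KO. WT replicate 2 was the lowest of the 4 at each of these 3 neighbours, and WT replicate 1 was above both KO lines at Zfp429 and Zfp459 and between them at Zfp456. Summed over the 3, which span 46.2 kb, it reached 76, or 30.4% of the mean of the other libraries. On either side WT replicate 2 was closer to the others, with 134 at Zfp953 before them (102 to 133 in the other libraries) and 164 at Zfp58 after them (161 to 172). Of a pair of sites between Zfp459 and Zfp58 that belong to no member gene, WT replicate 2 was again lowest at the first, 106 against 127 to 182, and highest at the second, 129 against 113 to 126. The log2 fold changes of Zfp429 and Zfp456, 1.02 ± 0.79 and 0.67 ± 0.62, turned to -0.27 and -0.12 without WT replicate 2. Without WT replicate 1 Zfp429 was called as higher, at 2.31.

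**Figure D5:**
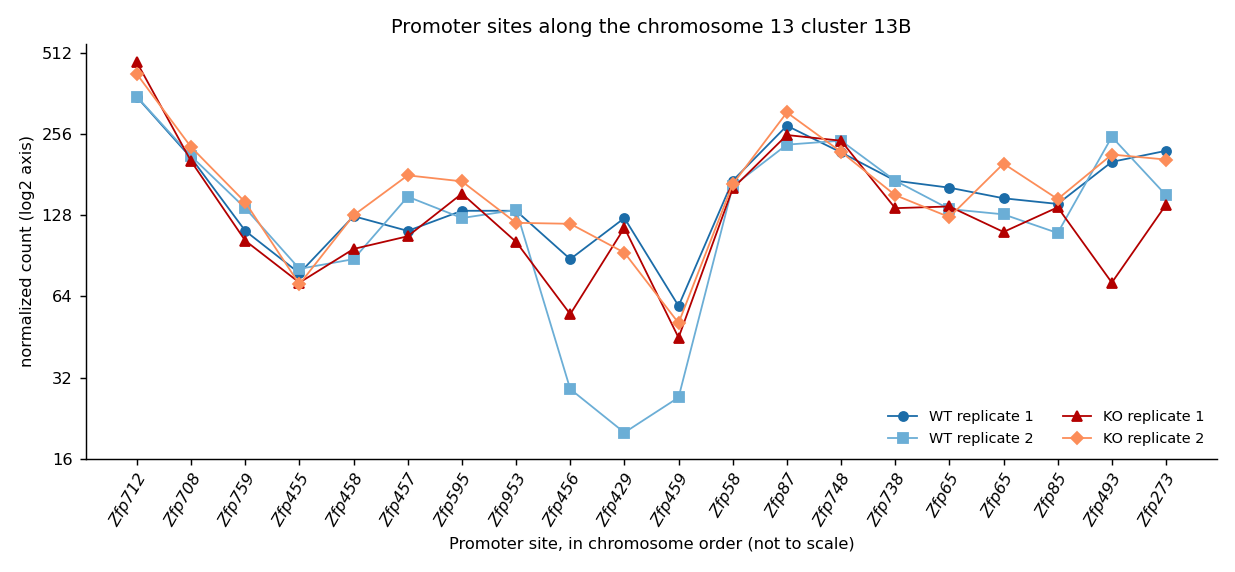
Normalized counts (log2 axis) of the 4 libraries at the 20 promoter sites of cluster 13B in chromosome order, spaced evenly. WT replicate 2 drops to 29, 20 and 27 at Zfp456, Zfp429 and Zfp459, and KO replicate 1 to 72 at Zfp493.

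Such gaps of 1 library were looked for at all Zfp sites. A library was at least 2-fold below each of the others at 7 of 182 promoter sites (3.85%), beside 8.73% of all sites and 3.73% of protein-coding promoter sites. No Zfp promoter site had 1 library at least 2-fold above the others, beside 5.56% of all sites. KO replicate 1 was the low library at 6 of 182 (3.30%), beside 4.38% of all sites and 410 of 21131 protein-coding promoter sites. WT replicate 2 was the low library at 1 (0.549%), beside 1.14% of all sites and 91 of 21131 protein-coding promoter sites. In addition to Zfp773, Zfp983 and Zfp493, KO replicate 1 was low at Zfp976 (133 and 141 in WT, 52 and 161 in KO), Zfp819 (60 and 39 in WT, 16 and 35 in KO) and Zfp974 (33 and 32 in WT, 15 and 32 in KO). Zfp976 and Zfp819 belong to 7H, the cluster where the median deviations of the KO lines were farthest apart, -0.42 and 0.25.

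At gene bodies a library stood at least 2-fold below the others at 7 of 44 sites (15.9%) and above them at 3 (6.82%), beside 8.73% and 5.56% of all sites. In 17A KO replicate 1 dropped at a site within Zfp760 (67 and 64 in WT, 11 and 131 in KO) and at one within Zfp229 (42 and 39 in WT, 13 and 47 in KO), which are the next member genes after Zfp983. The promoters of the same genes did not drop with them: Zfp760 had 189 and 264 in WT and 210 and 316 in KO, and that of Zfp229 was given above. In Zfp536, a solitary gene of chromosome 7 that acts in neural differentiation, KO replicate 1 was low at both intronic sites (41 and 43 in WT, 5 and 42 in KO at one, 13 and 33 in WT, 5 and 48 in KO at the other). Zfp566 in 7G had the opposite kind of gap, with WT replicate 1 at 93 and the other three libraries at 217 to 227.

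The body sites as a class had a median log2 fold change of -0.00038, with 22 of 44 below 0. Only 5 clusters had any body site, and 4 of the 5 medians were above 0. The number below 0 was 3 without WT replicate 1 or without KO replicate 2, 0 without WT replicate 2, 2 with the gene record as the only TSS and 2 with sites of higher signal only, where the median of 17A turned from 0.22 to -0.26. Clustered body sites had a median of 0.16 over 23 sites and those of solitary genes -0.13 over 21. Both KO values were below both WT values at 4 body sites (9.09%) and above them at 6 (13.6%), beside 14.3% and 14.6% of all sites. For the solitary genes the summed body sites were 1138 and 1211 in WT and 1066 and 1092 in KO, lower in both KO lines (exact permutation p = 0.33).

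Single body sites of at least the median signal had smaller differences. After Zfp760, the most negative differences were at a site of Zfp169 with 81 and 108 in WT and 84 and 60 in KO, and at one of Zfp710 with 99 and 89 in WT and 73 and 74 in KO (-0.39 ± 0.33 and -0.35 ± 0.28). Of these, the Zfp710 site had both KO values below both WT values. Among the positive ones, Zfp13 in 17A had 200 and 184 in WT and 209 and 242 in KO (0.23 ± 0.20), and Zfp346, which encodes a protein that binds double-stranded RNA, had 47 and 44 in WT and 48 and 83 in KO. The intronic sites of Zfp568 and Zfp935 had log2 fold changes of 0.17 and 0.14. The 5 sites of Zfp366 ran from -0.04 to 0.38, and one of them had 45 and 44 in WT and 47 and 44 in KO. The body sites under the median of all sites had wider gaps between lines, as at Zfp30 with 10 and 2 in WT and 8 and 35 in KO.

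Members with a known role were read whatever their values. Zfp57, which keeps DNA methylation at imprinted regions, had 243 and 246 in WT and 210 and 141 in KO at its promoter, lower in both KO lines but more so in KO replicate 2 (-0.50 ± 0.25). Zfp568, a repressor of a placental promoter of Igf2 and the strongest promoter of 7G, had 425 and 487 in WT and 543 and 487 in KO (0.18 ± 0.13). Zfp708, which binds a family of endogenous retroviruses, had 209 and 212 in WT and 203 and 229 in KO. Zfp30 had the closest values among the promoters whose signal reached the all-site median, 177 and 180 in WT and 185 and 186 in KO. Its log2 fold change of 0.055 turned to -0.013 with equal totals and to -0.015 with quantile normalization.

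Zfp143, the promoter-binding factor named above, had the strongest promoter of all the member genes, at 654 and 763 in WT and 766 and 941 in KO (0.26 ± 0.13), with both KO lines above both WT lines by 3 normalized counts at the nearest. Zfp36 had 515 and 676 in WT and 597 and 665 in KO, which overlap. Zfp110, whose product interacts with a neurotrophin receptor, had 180 and 218 in WT and 180 and 260 in KO, and Zfp318 had 264 and 240 in WT and 281 and 236 in KO. The KO values of both spanned or met the WT values. The strongest promoters of 7B, 13B and 17A (Zfp444, Zfp712 and Zfp948) were given above. Those of the other clusters had log2 fold changes of 0.05 (Zfp808) to 0.25 (Zfp524). Among these, Zfp808, Zfp719, Zfp36, Zfp954 and the site shared by Zfp646 and Zfp668 dropped below 0 after quantile normalization. The weakest promoter site was one of Zfp131, at 14 and 11 in WT and 24 and 11 in KO.

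The genes of the machinery that KRAB zinc finger proteins recruit were read at their promoters from a list of 25. The list also held Zfp809 and Yy1, which are zinc finger genes themselves. A promoter site was found for 23 of the 25, with no site at Cbx3 and no gene under the symbol Tasor in the annotation. Of their 47 promoter sites 0 were called and 0 had a limma p under 0.05. The median log2 fold change over the 23 genes, each by its strongest site, was 0.12, with 20 of 23 above 0 (87.0%), beside 0.04 and 57.8% for 14411 protein-coding genes read the same way. With equal totals the median of the 23 was 0.05, with 17 of 23 above 0 (73.9%, beside 44.1%). With quantile normalization it was 0.04, with 15 of 23 above 0 (65.2%, beside 36.9%). Without KO replicate 2 it was 0.01, with 13 of 23 above 0 (56.5%, beside 55.3%). Trim28, the corepressor itself, had 302 and 315 in WT and 299 and 489 in KO, so KO replicate 2 alone was higher. Setdb1, the H3K9 methyltransferase, had 111 and 129 in WT and 121 and 125 in KO. Zfp809, which silences murine leukemia virus and lies outside the 3 chromosomes, had 367 and 344 in WT and 381 and 382 in KO. Yy1, a zinc finger factor in the same silencing, had the largest value, 0.33 ± 0.15, with 355 and 404 in WT and 439 and 520 in KO.

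Tandem copies share sequence, which bears on where reads can be placed. Every 32-base stretch of a site occurred once in the genome for 110 of the 182 Zfp promoter sites (60.4%), beside 83.0% of protein-coding promoter sites and 81.0% of all sites. In clusters the share was 54.9% and at solitary genes 81.6%. Under 90% of stretches were unique at 29 Zfp promoter sites (15.9%), beside 3.91% of protein-coding promoter sites, and the lowest was the site shared by Zfp934 and Zfp935 in 13A at 23.3% (133 and 160 in WT, 97 and 114 in KO). How reads that match several places were treated is not given in the sources used here, so a value at such a site may include reads from a related copy. The sites of Zfp773, Zfp418 and Zfp459 were unique throughout, those of Zfp456, Zfp983 and Zfp429 at 80.1%, 72.5% and 70.7%. The intronic Zfp52 site that came nearest to the call rule was unique at 84.6%, and the promoter site of Zfp976 at 55.4%.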

How the data were processed

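Open chromatin was profiled by ATAC-Seq, where Tn5 transposase inserts adapters into accessible DNA. Per the methods and the submitters' processing notes, paired-end reads went through BWA 0.7.12 against mm10, MACS2 2.1.0 for peaks and DESeq2 for differential occupancy. The deposited table holds 1 score per library and site: counts that the authors divided by a factor per library and rounded to whole numbers. Read filters and any Tn5 offset are not given in the sources used here. The table also holds the authors' log2 fold changes, p-values and adjusted p-values, which were not used.

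Scores were tested as log2(value + 1) for KO against WT with limma 3.58.1 (trend, R 4.3.3) over all 82325 sites, with Benjamini-Hochberg adjustment over all and no filter on low values. Fold changes on this scale understate the change of low sites. The design foresaw edgeR only for raw counts, which these are not. The test was checked on 82325 simulated sites, of which 200 were changed by 2 on the log2 scale. These 200 were drawn only from sites at or above the median signal, so recovery at lower sites was not checked. The unadjusted call rule took 199 of the changed sites and also 418 unchanged ones. That is more than the 307 sites called in the data, so a call by this rule is not by itself evidence of a change. Depth was estimated from the steps in the scaled values.

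Gene models were GENCODE M21 (mm10). Uniqueness was the share of 32-base stretches found once in GRCm38.p6. Promoter pairs were aligned with Biopython 1.88. Named sites were any called site, the 5 most negative and 5 most positive differences of each site class at or above the all-site median, the strongest promoter of each cluster, members with a known role, and the promoter with the closest values. Zfp712 and Zfp948 fall under these rules, whereas sites named in the text on gaps of a single library, body sites of Zfp52, Zfp366, Zfp536 and Zfp30, and the weakest promoter were chosen after their values were seen. The members, gene lists and rules were chosen with earlier results of these data known. Replicates were numbered in accession order and do not pair lines across genotypes. Values after ± are standard errors from limma. They combine the spread between lines at the site with that at sites of similar signal, so they are not the spread at the site alone.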

Additional observations from a re-analysis of the deposited data

How the results depend on the processing

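The count of 0 called Zfp sites held with a pseudocount of 8, with sites of higher signal only, with equal totals and with quantile normalization. Taking the gene record as the only TSS, or promoters within 1 kb, could not add a call, as both relabel sites of the same fit. An adjusted p under 0.05 could not add one either, as no site of the whole table had one. The count was not fixed in this way under the remaining settings. The count was 1 (Zfp52, higher, 1.02) when centred on chromosome medians and 4 at a limma p under 0.05 with no fold minimum. Leaving out 1 library gave 0 to 5 calls. The 5 came without KO replicate 2 (Zfp773, Zfp983, Zfp493 and body sites of Zfp760 and Zfp536, all lower, beside 0.743% of all sites), and 1 came without WT replicate 1 (Zfp429). The median of the promoter sites ran from -0.025 to 0.17 and that of the body sites from -0.14 to 0.19 when a library was left out, and 1 to 8 of 13 clusters were below 0. With equal totals and with quantile normalization 7 clusters were below 0. The number of Zfp sites in HADs was 4 with windows of 15 sites and with equal totals, 3 with quantile normalization, 0 with windows of 51 sites, with a limit of -1, with a pseudocount of 8 and with sites of higher signal only, and 0 to 10 when a library was left out. The scalings, the pseudocount, the signal filter and the omission of libraries were added for HADs after the data were seen. The cause of these shifts was not tested.

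Signs that turned with the scaling were all near 0. With equal totals they were Zfp808 (-0.017), Zfp708 (-0.034), Zfp318 (-0.035) and Zfp30 (-0.013), and with quantile normalization Zfp808 (-0.0019), Zfp708 (-0.049), Zfp318 (-0.057), Zfp954 (-6e-05), Zfp36 (-0.092), Zfp30 (-0.015), Zfp719 (-0.049) and the site of Zfp646 and Zfp668 (-0.047). Leaving out a library turned the sign at promoters of Zfp429 (-0.27 to 2.31), Zfp456 (-0.12 to 1.45), Zfp808 (-0.31 to 0.41), Zfp110 (-0.14 to 0.39), Zfp36 (-0.10 to 0.29), Zfp646 and Zfp668 (-0.023 to 0.30), Zfp719 (-0.087 to 0.24), Zfp954 (-0.030 to 0.22), Zfp318 (-0.093 to 0.16) and Zfp708 (-0.052 to 0.12). It turned body sites of Zfp760 (-2.47 to 0.99), Zfp566 (-0.032 to 1.25), Zfp568 (-0.14 to 0.47), Zfp935 (-0.011 to 0.29) and Zfp169 (-0.57 to 0.040). A lone library was assumed to vary as the other genotype did. DESeq2 and edgeR were not run, as the values are not raw counts. Replicates were numbered by accession, which pairs no lines, but 1 WT and 1 KO line name share a number. A fit with a block on that number was added after the data were seen. Its block also put WT replicate 2 and KO replicate 1 together, although their line numbers (78 and 41) differ. That fit called 0 Zfp sites and 257 of all sites. At an unadjusted p under 0.05 it held 4 Zfp promoters, with Zfp983 and Zfp444 in place of Zfp712 and Zfp948. With 2 lines per genotype and about 5650000 to 11400000 reads in sites, differences of the size seen at most promoters could not be told from the spread between lines.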
